A study of Homo sapiens with 15 samples.

Results

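Axon guidance receptors and ligands were taken as every gene whose symbol named a Roundabout receptor (ROBO), a Slit (SLIT), a semaphorin of classes 3 to 7 (SEMA), a plexin (PLXN), a neuropilin (NRP), an Eph receptor (EPH), an ephrin (EFN), a netrin (NTN) or an UNC5 receptor, together with DCC and NEO1. They made up 70 of the 60651 genes in the count table of the depletion dataset and 68 of the 23792 genes in the table of the overexpression dataset, where DCC and UNC5D were not listed. Of the 70 genes, 35 encode ligands and 35 encode receptors or co-receptors. All cells were labelled MDA-MB231, a line of human breast cancer of the triple-negative kind. In the depletion dataset, 3 SG1 and 3 SG3 libraries, both of genotype KIF20A knockdown, were set against 3 CTRL libraries of genotype WT. In the overexpression dataset, 3 KIF20A_OE libraries (genotype KIF20A overexpression) were set against 3 EV libraries of genotype WT. KIF20A is a kinesin that acts at the central spindle in cytokinesis. The labels do not say what SG1, SG3 and EV stand for, whether a group is a single clone, or whether replicates were separate cultures, so the p-values speak only for the spread among the samples at hand, and that spread may be technical.

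Guidance ligands are secreted or membrane-bound proteins that attract or repel a growing axon or a moving cell through receptors that act on the cytoskeleton. Slits signal through Roundabout receptors, netrins through DCC, neogenin and UNC5 receptors, semaphorins through plexins with or without a neuropilin, and ephrins through Eph receptor tyrosine kinases. Many of these genes are also used outside the nervous system, in blood vessels, epithelia and tumour cells, where they act in adhesion, migration and vessel growth.

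KIF20A itself was measured at 123, 147 and 91.5 CPM (counts on a per-million scale) in SG1, at 86.3, 60.8 and 79.1 CPM in SG3 and at 154, 171 and 160 CPM in CTRL. Its log2 fold change against CTRL was -0.42 ± 0.18 (SE) in SG1 and -1.10 ± 0.18 in SG3, and neither passed edgeR's quasi-likelihood test across all genes (adjusted p = 0.913 and 0.33). In the overexpression dataset it was at 1348, 269 and 896 FPM (fragments on a per-million scale) in KIF20A_OE, against 101, 143 and 124 FPM in EV (limma adjusted p = 0.00415). The libraries labelled KIF20A_OE went against the cell line on their label in some markers. Of 5 genes that mark mesenchymal-like breast cancer lines, 5 were lower than in EV. AXL averaged 0.771 ± 0.0353 FPM in KIF20A_OE and 962 ± 148 FPM in EV, and CD44 averaged 0.557 ± 0.591 and 642 ± 135 FPM (SD, n = 3 each). VIM and ZEB1 were still expressed. They averaged 555.5 and 43.1 FPM in KIF20A_OE, 2653 and 160.6 FPM in EV, and 684.9 and 64 CPM in CTRL. The 5 genes summed to 423 to 853 FPM per library in KIF20A_OE, against 4485 to 5201 FPM in EV. Across 14875 genes, the Pearson correlation of log2 levels between single libraries was 0.717 to 0.742 for KIF20A_OE with EV, and 0.891 to 0.902 for EV with CTRL. An effect of KIF20A and any other difference between these 2 sets of libraries therefore cannot be told apart in the comparison of KIF20A_OE with EV, and "the libraries labelled KIF20A_OE" is meant wherever the name is used. In the depletion dataset, the replicates CTRL 3 and SG3 1 lay with the SG1 libraries on the first principal component, which held 23.4% of the variance. Library totals were 40895819 to 51018667 counts in the depletion dataset and 15971297 to 22182293 fragments in the overexpression dataset, so that 3 counts, taken as the floor for a gene with none, equalled 0.0571 to 0.0723 CPM and 0.135 to 0.188 FPM.

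The promoter sequences of 5 members are shown because these genes were among those with the largest differences between KIF20A_OE and EV or, for ROBO1, the largest fold difference in the depletion dataset. They are the RefSeq bases (GRCh38.p14) before the start of transcription that no GENCODE 29 exon covers, written 5′ to 3′ on the gene's strand, with both RefSeq starts of ROBO1 and the most upstream of the 3 of EPHA7. Capitals mark the searched motifs, on either strand: TGANTCA, the site of AP-1 factors, TGACGTCA, the cAMP response element, TATAAA, the TATA box, and GGAATG, the core of sites of TEAD factors. None of these motifs contains another.
EPHA2 promoter, chr1:16156088-16156319, minus strand: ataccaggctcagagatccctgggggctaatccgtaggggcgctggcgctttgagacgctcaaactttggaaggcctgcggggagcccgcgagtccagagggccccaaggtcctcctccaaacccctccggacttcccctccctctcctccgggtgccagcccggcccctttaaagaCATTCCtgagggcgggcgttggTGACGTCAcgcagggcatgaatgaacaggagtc
PLXNB3 promoter, chrX:153763999-153764195, plus strand: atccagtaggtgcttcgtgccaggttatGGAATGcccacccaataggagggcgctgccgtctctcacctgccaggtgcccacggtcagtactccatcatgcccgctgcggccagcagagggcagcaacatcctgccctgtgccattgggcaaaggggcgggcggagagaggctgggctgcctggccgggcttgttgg
EPHA7 promoter, chr6:93419560-93419809, minus strand: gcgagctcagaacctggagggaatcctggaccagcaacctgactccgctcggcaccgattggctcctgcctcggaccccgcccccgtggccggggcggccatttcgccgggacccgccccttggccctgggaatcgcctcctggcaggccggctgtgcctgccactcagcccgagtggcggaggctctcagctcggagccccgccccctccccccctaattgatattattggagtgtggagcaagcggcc
SLIT2 promoter, chr4:20251655-20251904, plus strand: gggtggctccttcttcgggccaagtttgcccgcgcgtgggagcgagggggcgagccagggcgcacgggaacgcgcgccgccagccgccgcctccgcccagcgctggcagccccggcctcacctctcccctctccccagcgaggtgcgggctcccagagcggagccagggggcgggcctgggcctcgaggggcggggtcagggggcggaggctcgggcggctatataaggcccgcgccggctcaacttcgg
ROBO1 promoter, chr3:79767999-79768248, minus strand: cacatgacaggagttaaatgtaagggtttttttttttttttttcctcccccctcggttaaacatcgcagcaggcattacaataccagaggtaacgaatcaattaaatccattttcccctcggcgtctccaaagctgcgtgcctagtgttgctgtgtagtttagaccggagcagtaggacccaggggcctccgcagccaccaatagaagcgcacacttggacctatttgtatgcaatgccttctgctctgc
ROBO1 promoter, chr3:79019460-79019709, minus strand: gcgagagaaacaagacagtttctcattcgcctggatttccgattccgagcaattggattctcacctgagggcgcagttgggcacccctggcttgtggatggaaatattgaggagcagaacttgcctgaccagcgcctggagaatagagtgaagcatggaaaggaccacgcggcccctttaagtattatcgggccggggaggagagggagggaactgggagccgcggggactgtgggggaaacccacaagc

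EPHA2 held TGACGTCA and, as its reverse complement, GGAATG, PLXNB3 held GGAATG, and the other 4 stretches printed held none of these letters. A window of EPHA7 at another start, not printed, held TATAAA. In windows of 250 bases before the start, TGACGTCA was present in 3.26% of the 92 windows of the 60 members with a RefSeq entry and in 1.65% of all 35116 windows. GGAATG was present in 7.61% of member windows and 11.9% of all windows, TATAAA in 3.26% and 10.7%, and TGANTCA in 1.09% and 6.57%. The median number of CpG pairs in a window was 17.5 for the members and 11 for all genes. It was 23 for the members that were lower in KIF20A_OE, 15 for those that were higher, 19.5 for those not called and 15.5 for those not tested. No such split was made for all genes, so whether the difference is particular to the members is not known. A match describes these letters only. The motifs were chosen with the expression values known.

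**Figure D1:**
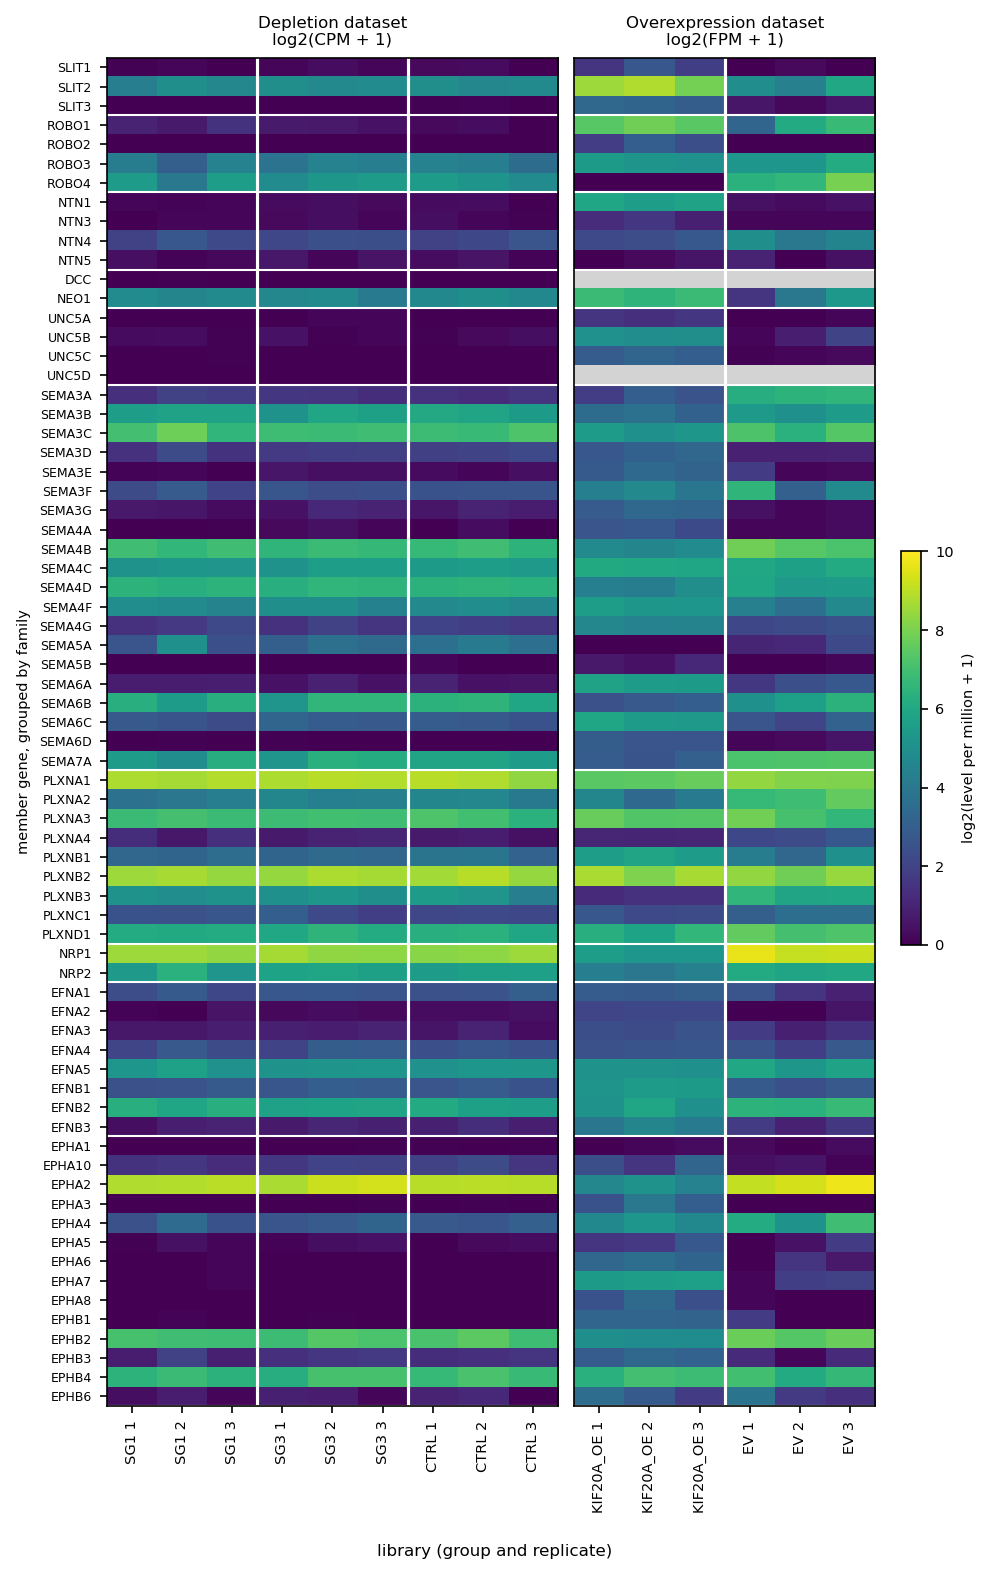
Level of each member in each library, as log2(CPM + 1) in SG1, SG3 and CTRL and log2(FPM + 1) in KIF20A_OE and EV, with genes grouped by family and grey for genes not in a table. The 9 depletion libraries look alike in nearly every row, whereas KIF20A_OE and EV differ in most rows. ROBO4 is 0 in the 3 KIF20A_OE libraries, and EPHA3 and ROBO2 are 0 in the 3 EV libraries.

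A large part of the family was expressed in these cells. At a mean of at least 1 CPM or FPM, 42 of 70 members were present in SG1, 40 in SG3 and 41 in CTRL, and 63 of 68 were present in KIF20A_OE, against 45 of 68 in EV. The share of all genes at that level was not taken, so these counts do not set the members apart from other genes. EPHA2 was the highest member per kb of exon in SG1, SG3 and CTRL, at 113, 132 and 118 CPM per kb. PLXNB2, PLXNA1, NRP1 and SEMA3C followed it in that order in each of these 3 groups. In EV the order was EPHA2, NRP1, PLXNB2, SEMA7A and PLXNA1, while PLXNB2, SLIT2, ROBO1, PLXNA1 and EPHB4 led in KIF20A_OE. Over the 68 members in both tables, the rank correlation of mean levels per kb was 0.526 between KIF20A_OE and EV, 0.893 between EV and CTRL, 0.987 between SG1 and CTRL and 0.993 between SG3 and CTRL. These are descriptions over genes, which are not replicates, and EV and CTRL were scaled in separate tables.

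In KIF20A_OE against EV, 62 members passed the filter of a mean of 1 FPM, and EPHA1, NTN3, NTN5, SEMA5A, SEMA5B and UNC5A did not. Of these, 31 were higher, 22 were lower and 9 did not pass (limma on log2(FPM + 1), adjusted p under 0.05), so that 85.5% of the tested members were called, against 69.6% of the 15265 genes tested. Members higher were 31 of 62 against 46.2% of all genes, and members lower were 22 of 62 against 23.4%. The median log2 fold change of the tested members was 1.09, and that of all tested genes was 0.37. Of the 62 members, 18 reached 1 FPM on average in KIF20A_OE only, and 17 of those were among the 31 higher, a direction that the filter itself favours. ROBO4 alone reached 1 FPM in EV only and was lower, again the direction that the filter favours. Among the 43 that reached 1 FPM in both groups, 14 were higher and 21 lower. The libraries of the groups did not overlap for 31 higher and 21 lower members, against 48.9% and 25.2% of all genes. The scaling moves these shares: with TMM (trimmed mean) scaling the median of all genes moved by -0.32, the members split into 29 higher and 23 lower, and the share of higher genes among all called genes was 51.9%, against 66.4% without it. With edgeR on the recovered fragments the median moved by -0.30, the members split into 28 higher and 24 lower, and that share was 52.1%. Since bulk RNA was measured, fewer cells of a type and less RNA per cell cannot be told apart.

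**Figure D2:**
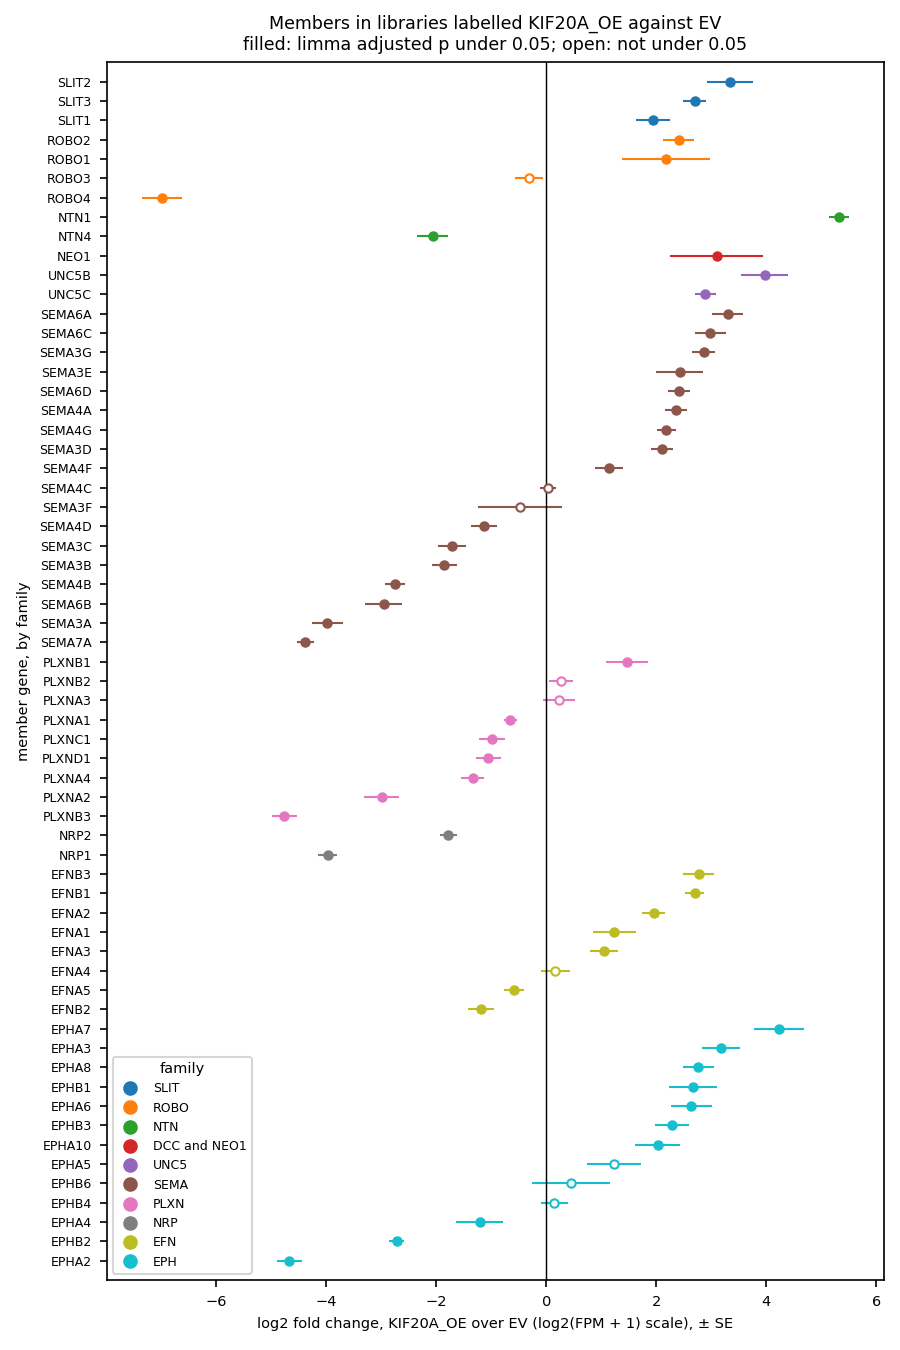
Log2 fold change of the 62 tested members in KIF20A_OE over EV on the log2(FPM + 1) scale, with bars for the SE, coloured by family. Filled points passed the limma test and open points did not. The 3 Slits lie right of 0, both neuropilins lie left of it, and semaphorins, ephrins and Eph receptors lie on both sides. SLIT1 and SLIT3 reached 1 FPM on average in KIF20A_OE only, a direction that the filter favours.

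All 3 Slits were higher in KIF20A_OE than in EV, while the Roundabout receptors split, with ROBO1 and ROBO2 higher, ROBO4 lower and ROBO3 not called. SLIT1, SLIT3 and ROBO2 reached 1 FPM on average in KIF20A_OE only, a direction that the filter favours. SLIT2 and ROBO1 reached it in both groups. SLIT2, the most abundant Slit in every group, was at 373, 442 and 237 FPM in KIF20A_OE, against 28.8, 19.2 and 62.4 FPM in EV. The lowest KIF20A_OE library lay above the highest EV library, and the log2 fold change was 3.34 ± 0.42 (SE, limma adjusted p = 0.00027). The other Slits were scarce and also higher: SLIT3 averaged 8.08 ± 1.19 and 0.399 ± 0.22 FPM, and SLIT1 averaged 3.36 ± 2.01 and 0.0644 ± 0.112 FPM, in KIF20A_OE and in EV (SD, n = 3 each). ROBO1, a receptor of Slits that is widely expressed, was at 168, 227 and 175 FPM in KIF20A_OE, against 8.71, 67.9 and 107 FPM in EV. The EV libraries were themselves far apart, and the log2 fold change of 2.18 ± 0.80 was just past the threshold (limma adjusted p = 0.0425). It was 1.13 without EV replicate 1 and 2.87 without EV replicate 3, with limma adjusted p of 0.00277 and 0.0156. Without EV replicate 2 or any single KIF20A_OE library the adjusted p was 0.0516 to 0.0981, and it was 0.0734 with TMM scaling, 0.122 in edgeR and 0.0678 with no filter on low values. ROBO2 was at 2.57, 6.94 and 4.28 FPM in KIF20A_OE and had no fragment in any EV library, at least 94.7-fold higher with the floor of 3 fragments over the EV group.

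ROBO4, the Roundabout receptor best known from endothelium, had no fragment in any KIF20A_OE library, against 83.4, 97.2 and 243 FPM in EV. This was at least 2550-fold lower with the floor of 3 fragments over the KIF20A_OE group, the largest fall of any member (limma adjusted p = 9.47e-07). ROBO4 reached 1 FPM on average in EV only, so it passed the filter through the group where it is high. Of 3 tested endothelial markers, 3 had a negative log2 fold change and 2 were called lower. The 6 markers summed to 1.07 to 36.4 FPM in KIF20A_OE, against 78.6 to 95 FPM in EV. PECAM1 was at 0.689, 35.8 and 0.321 FPM in KIF20A_OE and 11.8, 6.43 and 9.29 FPM in EV. Its mean was higher in KIF20A_OE (12.27 against 9.175 FPM) through replicate 2 alone. CLDN5 and VWF averaged 0.245 and 0.316 FPM in KIF20A_OE and 0.0714 and 0.269 FPM in EV. These 2 genes lay close to the floor. TIE1, CDH5 and TEK had lower means in KIF20A_OE. TIE1 made up most of the sum in EV (70.5 ± 9.16 FPM), and PECAM1 at 35.8 FPM in KIF20A_OE replicate 2 set the upper end of the sum in KIF20A_OE. No marker was at 0 in every library of either group. The part of those markers in the result was not tested. In the depletion dataset ROBO4 was at 35.3 ± 17.8 CPM in SG1, 36.5 ± 8.12 in SG3 and 35.7 ± 8.75 in CTRL (SD, n = 3 each), where the same markers summed to 1.5 to 2.1 CPM in CTRL. ROBO3 did not pass, at 43, 35.5 and 32.7 FPM in KIF20A_OE and 36.7, 36.9 and 70.5 FPM in EV (log2 fold change -0.30 ± 0.26, limma adjusted p = 0.311). In summed levels per kb, ROBO1 made up 75.6% of the Roundabout family in KIF20A_OE and 15.8% in EV, and ROBO4 made up 61.5% in EV, 68.3% in SG1, 67.2% in SG3 and 68.6% in CTRL.

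Among netrins and their receptors, NTN1 had the largest rise of any member on the log2(FPM + 1) scale. NTN1, the founding netrin of the vertebrate spinal cord midline, was at 59.9, 45.8 and 52.9 FPM in KIF20A_OE, against 0.381, 0.242 and 0.412 FPM in EV. The groups lay far apart and the replicates close together, with a log2 fold change of 5.32 ± 0.19 (limma adjusted p = 1.12e-07) and a ratio of pooled rates of 153 (95% exact interval 98.8 to 251, counting error only). NTN1 reached 1 FPM on average in KIF20A_OE only, a direction that the filter favours. NTN4, a netrin of basement membranes, went the other way, with 3.63, 4.19 and 5.68 FPM in KIF20A_OE and 30.8, 15.1 and 22 FPM in EV (log2 fold change -2.07 ± 0.28, limma adjusted p = 0.000205). NTN1 therefore made up 81.4% of the summed netrin level per kb in KIF20A_OE, whereas NTN4 made up 96% in EV, 87.9% in SG1, 78.3% in SG3 and 82.4% in CTRL. NTN3 and NTN5 stayed under the filter, with means of 1.43 and 0.221 FPM in KIF20A_OE and 0.103 and 0.435 FPM in EV.

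Of the netrin receptors, UNC5B, a dependence receptor also known from blood vessels, was at 32.4, 29.3 and 29.8 FPM in KIF20A_OE, against 0.0952, 0.773 and 3.17 FPM in EV (log2 fold change 3.97 ± 0.43, limma adjusted p = 6.37e-05). UNC5C was at 6.45, 8.47 and 6.85 FPM in KIF20A_OE, against 0.0476, 0.0967 and 0.176 FPM in EV. Unlike UNC5B, it reached 1 FPM on average in KIF20A_OE only, a direction that the filter favours. UNC5A, at 1.81 ± 0.21 FPM in KIF20A_OE and 0.0392 ± 0.0679 FPM in EV (SD, n = 3 each), did not pass the filter. NEO1, which encodes neogenin, a receptor of netrins and of repulsive guidance molecules, was at 112, 89 and 110 FPM in KIF20A_OE, against 1.81, 15 and 39.3 FPM in EV. No EV library came near a KIF20A_OE library, but the EV libraries ranged widely, and the log2 fold change of 3.10 ± 0.85 (limma adjusted p = 0.0128) was 2.04 without EV replicate 1 and 3.96 without EV replicate 3. DCC, the classical netrin receptor, had 2 counts in 1 SG1 library and none in the other 8 depletion libraries. Neurons are a cell type in which many of these genes are known. Of 6 neuron markers 4 were tested, with 2 higher and 1 lower, and the 6 summed to 79.6 to 126 FPM in KIF20A_OE, against 8.51 to 24.3 FPM in EV. The 2 higher were NEFL and SYP. NEFL, a neurofilament gene, was at 101, 50.6 and 89.8 FPM in KIF20A_OE and at 0 in EV. SYP was at 9.45, 23.9 and 8.35 FPM in KIF20A_OE, against 0.571, 1.11 and 0.823 FPM in EV. Both were below 1 FPM on average in EV, and the filter favours that direction. RBFOX3, also at 0 in EV, was not tested. Without NEFL the other 5 markers summed to 23.5 to 28.9 FPM in KIF20A_OE and 8.51 to 24.3 FPM in EV, with overlap. MAP2 at 21.05 FPM in EV replicate 3 made up most of that upper end in EV. TUBB3 was the lower one, at 0.245 ± 0.213 FPM in KIF20A_OE and 1.77 ± 0.572 FPM in EV, and MAP2 did not pass, at 9.16 ± 5.99 and 11.2 ± 8.57 FPM (SD, n = 3 each). The part of these markers in the results was not tested.

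Semaphorins split by gene, with 9 higher, 7 lower and 2 not called of 18 tested. SEMA7A, a membrane-anchored semaphorin that signals through integrins and plexin C1, was at 6.51, 5.05 and 7.28 FPM in KIF20A_OE, against 141, 151 and 157 FPM in EV. Replicates of both groups were tight, and the log2 fold change was -4.38 ± 0.16 (limma adjusted p = 1.26e-07). SEMA3A, the secreted repellent that collapses sensory growth cones, was at 2.5, 6.9 and 4.87 FPM in KIF20A_OE, against 74.8, 86.3 and 95.6 FPM in EV (log2 fold change -3.98 ± 0.28, limma adjusted p = 5.22e-06). SEMA6B, SEMA4B, SEMA3B, SEMA3C and SEMA4D were the other 5 lower semaphorins, with log2 fold changes of -2.96, -2.75, -1.85, -1.71 and -1.13. Semaphorin 4D is the ligand of plexin B1.

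On the log2(FPM + 1) scale the 9 higher semaphorins were led by SEMA6A and SEMA6C, both transmembrane. SEMA6A was at 53.7, 44.2 and 43.2 FPM in KIF20A_OE, against 2.1, 4.5 and 5.7 FPM in EV (log2 fold change 3.30 ± 0.28, limma adjusted p = 1.59e-05). SEMA6C was at 58.9, 44.4 and 41.5 FPM in KIF20A_OE, against 5.19, 3.24 and 7.94 FPM in EV (log2 fold change 2.98 ± 0.28, limma adjusted p = 2.71e-05). The other 7, SEMA3G, SEMA3E, SEMA6D, SEMA4A, SEMA4G, SEMA3D and SEMA4F, rose by 1.14 to 2.86 on the log2 scale. Of these, 5 were below 1 FPM on average in EV, and for those 5 the filter favours that direction. SEMA4C and SEMA3F did not pass. SEMA4C was level, at 66, 60.5 and 57.6 FPM in KIF20A_OE and 62.8, 50.1 and 67.8 FPM in EV (log2 fold change 0.03 ± 0.15, limma adjusted p = 0.844). SEMA3F was spread too widely in EV to be placed, at 18.9, 25.2 and 14.2 FPM in KIF20A_OE and 91.3, 7.39 and 26.6 FPM in EV. SEMA5A had no fragment in KIF20A_OE and 1.05, 1.16 and 3.59 FPM in EV, and was not tested.

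Most semaphorin receptors were lower in KIF20A_OE. NRP1, a co-receptor of class 3 semaphorins and of VEGF, was at 46.1, 37 and 37.1 FPM in KIF20A_OE, against 802, 556 and 592 FPM in EV (log2 fold change -3.98 ± 0.17, limma adjusted p = 2.72e-07). NRP2, its paralog, averaged 17.6 ± 2.48 FPM in KIF20A_OE and 62.5 ± 5.38 FPM in EV (SD, n = 3 each, log2 fold change -1.78 ± 0.15). No library of either gene overlapped between the groups. Of 9 plexins, 6 were lower, 1 was higher and 2 did not pass. PLXNB3, a plexin known as the receptor of semaphorin 5A, was at 1.32, 1.67 and 1.71 FPM in KIF20A_OE, against 95.1, 56.9 and 59.2 FPM in EV (log2 fold change -4.76 ± 0.23, limma adjusted p = 5.78e-07). PLXNA2, a partner of class 3 and class 6 semaphorins, was at 23.4, 9.69 and 17.1 FPM in KIF20A_OE, against 104, 117 and 190 FPM in EV (log2 fold change -2.99 ± 0.33, limma adjusted p = 7.67e-05). PLXNB3 shares exon bases with SRPK3, a gene on the same strand, and how reads from shared bases were counted is not stated. It is 1 of 6 members with over 10% of exon length shared on either strand. The others are EFNA3, EFNA4, EFNB2, ROBO4 and SEMA4G.

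The remaining lower plexins, PLXNA4, PLXND1, PLXNC1 and PLXNA1, differed by -1.34 to -0.65 on the log2 scale. PLXND1, the receptor of semaphorin 3E on endothelium, averaged 77.2 ± 22.2 FPM in KIF20A_OE and 159 ± 32.3 FPM in EV, while its ligand gene SEMA3E averaged 7.93 ± 1.81 and 0.9 ± 1.32 FPM (SD, n = 3 each). PLXNB1 was the plexin that was higher, at 47, 56.6 and 45.2 FPM in KIF20A_OE and 18.1, 8.8 and 31.7 FPM in EV (log2 fold change 1.46 ± 0.38, limma adjusted p = 0.00918), a call that edgeR on the recovered fragments did not make (adjusted p = 0.0513). PLXNB2 and PLXNA3 did not pass. PLXNB2, a receptor of class 4 semaphorins, was the highest plexin per kb in each of the 5 groups, at 368 ± 84.9 FPM in KIF20A_OE and 305 ± 67.4 FPM in EV, and PLXNA3 was at 173 ± 26.1 and 156 ± 68.6 FPM (SD, n = 3 each).

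Among 13 Eph receptors tested, 7 were higher, 3 were lower and 3 did not pass, and the leading gene of the family differed between the groups. Of the 7 higher, EPHA3, EPHA6, EPHA8, EPHB1, EPHB3 and EPHA10 reached 1 FPM on average in KIF20A_OE only, and the filter favours that direction. EPHA7 and the 3 lower receptors reached it in both groups. EPHA2, an Eph receptor that is often abundant in carcinoma cells, was at 23.5, 33.8 and 20.3 FPM in KIF20A_OE, against 538, 648 and 859 FPM in EV (log2 fold change -4.67 ± 0.22, limma adjusted p = 5.67e-07). It made up 13.9% of the summed Eph level per kb in KIF20A_OE and 79.1% in EV, and 81.1%, 81.2% and 79.1% in SG1, SG3 and CTRL. EPHB2 was at 30.4, 28 and 27.8 FPM in KIF20A_OE, against 217, 165 and 206 FPM in EV (log2 fold change -2.72 ± 0.14, limma adjusted p = 7.68e-07). EPHB4, the receptor of ephrin B2 on venous endothelium, did not pass, at 80.5, 127 and 114 FPM in KIF20A_OE and 125, 68.4 and 99.8 FPM in EV, and it made up 37.3% of the summed Eph level in KIF20A_OE.

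On the log2(FPM + 1) scale EPHA7 led the 7 Eph receptors that were higher, at 42.2, 48.2 and 48.8 FPM in KIF20A_OE, against 0.0952, 2.66 and 2.94 FPM in EV (log2 fold change 4.24 ± 0.45, limma adjusted p = 6.53e-05). This was 3.64 without EV replicate 1, the library in which EPHA7 was nearly absent. EPHA3 was at 4.76, 15.2 and 6.91 FPM in KIF20A_OE and had no fragment in EV, at least 187-fold higher with the floor of 3 fragments over the EV group. The others were EPHA8, EPHB1, EPHA6, EPHB3 and EPHA10, each below 1 FPM on average in EV. EPHB1 had fragments in 1 of the 3 EV libraries, at 2.33 FPM, and was not called by edgeR on the recovered fragments (adjusted p = 0.0541). EPHA4, a receptor that binds both ephrin classes, was at 24.5, 37 and 24.4 FPM in KIF20A_OE and 70.9, 33.6 and 121 FPM in EV. It was the called member whose groups overlapped (log2 fold change -1.21 ± 0.43, limma adjusted p = 0.0363). Without EV replicate 1 or 3, or KIF20A_OE replicate 1 or 3, it did not pass (-1.16, -0.78, -1.11 and -1.11, limma adjusted p = 0.0644 to 0.0965). EPHA5 and EPHB6 also did not pass, with log2 fold changes of 1.24 ± 0.49 and 0.45 ± 0.71.

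Of 8 ephrins, 5 were higher and 2 were lower in KIF20A_OE. EFNB1, a transmembrane ephrin, was at 35.6, 44 and 42.7 FPM in KIF20A_OE, against 6.05, 4.45 and 5.88 FPM in EV (log2 fold change 2.697 ± 0.18, limma adjusted p = 3.61e-06). EFNB3, which acts as a midline barrier in the mouse spinal cord, was at 14.3, 22.4 and 16.9 FPM in KIF20A_OE, against 2.43, 0.87 and 2.12 FPM in EV (log2 fold change 2.78 ± 0.28, limma adjusted p = 4.09e-05). EFNB2, the arterial ephrin, went the other way, at 33.4, 58.9 and 31.8 FPM in KIF20A_OE and 88.3, 83.3 and 105 FPM in EV (log2 fold change -1.19 ± 0.23, limma adjusted p = 0.00187). EFNB2 held 18.3% of the summed ephrin level per kb in KIF20A_OE and 52.8% in EV, and EFNB1 held the largest share in KIF20A_OE with 27.8%. EFNA2, at 3.4 ± 0.127 FPM in KIF20A_OE and 0.157 ± 0.272 FPM in EV (SD, n = 3 each), was higher, while EFNA4 did not pass, with a log2 fold change of 0.17 ± 0.26. For EFNA2, which reached 1 FPM on average in KIF20A_OE only, the filter favours that direction. EFNA3 was higher by 1.05 on the log2 scale, which edgeR did not call (adjusted p = 0.0658). EFNA1 (1.24 ± 0.39) and EFNA5 (-0.58 ± 0.18, limma adjusted p = 0.0196 for both) lost the call in some alternatives. EFNA1 did so without EV replicate 2 or any single KIF20A_OE library (1.16 to 1.28, limma adjusted p = 0.0507 to 0.0636) and under both other scalings. EFNA5 did so without EV replicate 1 (-0.43), EV replicate 3 (-0.54) or KIF20A_OE replicate 3 (-0.55), with limma adjusted p of 0.0516 to 0.0656.

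**Figure D3:**
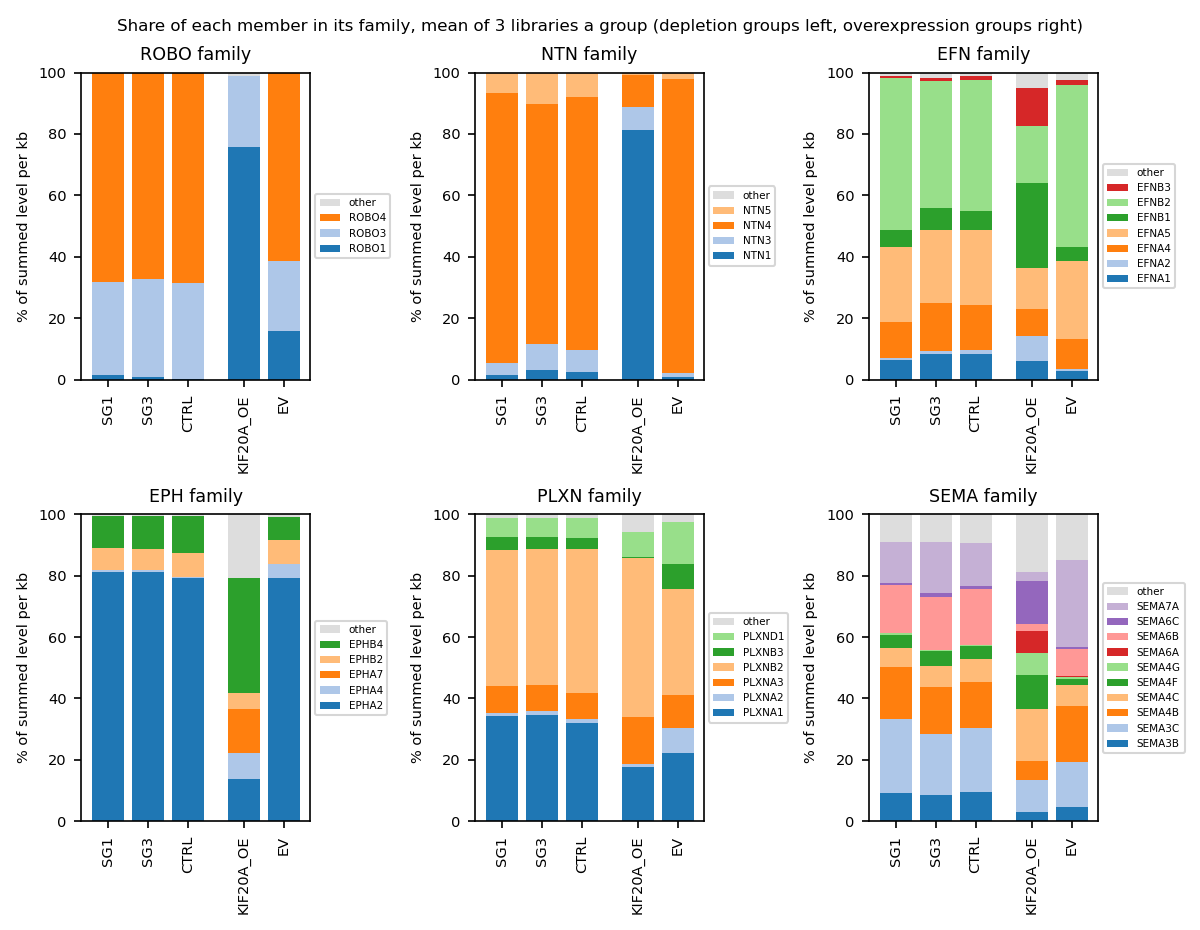
Share of each member in the summed level per kb of its family, as the mean of 3 libraries a group, for 6 families, with members that reached no share of 7% in any group joined as other. SG1, SG3 and CTRL have like bars. KIF20A_OE has ROBO1, NTN1, EFNB1 and EPHB4 as the largest blocks where EV has ROBO4, NTN4, EFNB2 and EPHA2, and PLXNB2 is the largest plexin block in all 5 groups.

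Some members differed between the control groups of the datasets. ROBO1 was at 8.71 to 107 FPM in EV, against 0 to 0.243 CPM in CTRL. SEMA3A was at 74.8 to 95.6 FPM in EV and 1.42 to 1.9 CPM in CTRL, and PLXNA2 at 104 to 190 FPM in EV and 15.4 to 23.9 CPM in CTRL. SEMA5A lay the other way, at 1.05 to 3.59 FPM in EV and 11.4 to 15.9 CPM in CTRL. Since the scaling of each table was its own, no test was run between EV and CTRL.

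In the depletion dataset no member was called. Of 53 members tested, 0 passed when SG1, SG3 or their mean was set against CTRL, or SG1 against SG3 (edgeR quasi-likelihood test, adjusted p under 0.05), and 0% of the 16786 genes tested were called in each. At an unadjusted p under 0.05, there were 5 members in SG1 against CTRL, where 4.59% of all genes had such a p, 1 in SG3 against CTRL (1.19%), 3 in SG1 against SG3 (4.74%) and 1 in the mean contrast (1.76%). DESeq2 called 1 member, ROBO1, in SG1 against CTRL, where it called 0.0179% of all genes. It called no member in the other contrasts, with 0.0238% of all genes in SG3 against CTRL and 0.0298% in each of the remaining 2. Of the 17 untested members, most were Eph receptors, netrin receptors and semaphorins with few or no counts, such as EPHA3, EPHA8, SEMA6D and DCC. The median log2 fold change of the tested members was -0.07 in SG1 and 0.03 in SG3 against CTRL, against 0.00 and -0.01 over all genes. SG1 and SG3 share the CTRL libraries.

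ROBO1 had the smallest unadjusted p of the members in both comparisons with CTRL. It had 44, 32 and 74 counts in SG1, 34, 28 and 16 counts in SG3, and 8, 12 and 0 counts in CTRL. Every SG1 and SG3 library lay above every CTRL library, at 0.927, 0.656 and 1.77 CPM in SG1, 0.648, 0.596 and 0.386 CPM in SG3, and 0.176, 0.243 and 0 CPM in CTRL. The log2 fold change was 2.97 ± 0.72 in SG1 (unadjusted p = 0.000988, edgeR adjusted p = 0.913) and 1.94 ± 0.73 in SG3 (unadjusted p = 0.0178, edgeR adjusted p = 1). With CTRL replicate 3 left out, the library with no ROBO1 count, it was 2.37 in SG1 and 1.35 in SG3, and with CTRL replicate 2 left out it was 3.65 in SG1 and 2.65 in SG3. In SG1 against CTRL, ROBO1 passed in DESeq2 (adjusted p = 0.0373), in edgeR with no filter on low counts (adjusted p = 0.000359) and in edgeR without CTRL replicate 3 and SG3 replicate 1 together (2.38, adjusted p = 0.0483). These 2 libraries were chosen for where they lie in the expression data. With no more than 74 counts in a library, ROBO1 rests on few reads. Of counts of 10 to 50 in a library, 62.9% to 68% were even, so 1 fragment may have added 2 counts, and with halved counts ROBO1 was not called either.

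**Figure D4:**
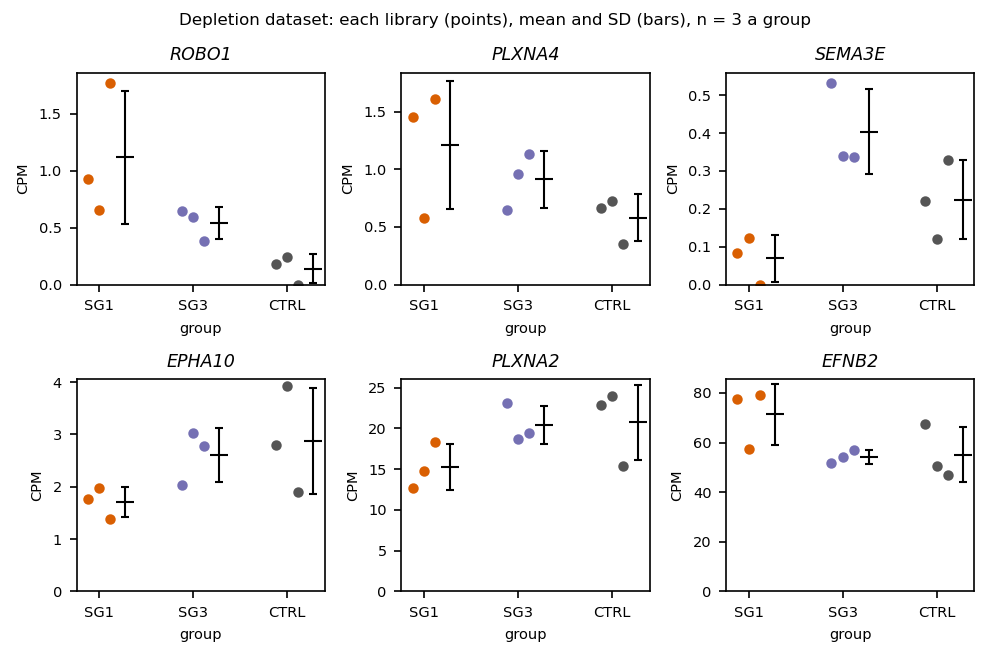
CPM of 6 members with small unadjusted p in the depletion dataset, with a point for each library and the mean and SD beside it (n = 3 a group). For ROBO1, the SG1 and SG3 points all lie above the CTRL points, between 0.386 and 1.77 CPM against 0 to 0.243 CPM. For PLXNA4 and EPHA10 the SG1 and CTRL points overlap.

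PLXNA4, a plexin A that is scarce here, was at 1.45, 0.574 and 1.6 CPM in SG1, 0.648, 0.958 and 1.13 CPM in SG3, and 0.662, 0.729 and 0.35 CPM in CTRL. EPHA10, an Eph receptor without kinase activity, was at 1.77, 1.97 and 1.39 CPM in SG1 and 2.8, 3.93 and 1.9 CPM in CTRL. Both overlapped between SG1 and CTRL, and their log2 fold changes were 1.05 ± 0.46 and -0.75 ± 0.31 (edgeR adjusted p = 0.913 for both). PLXNA2 was at 12.8, 14.7 and 18.3 CPM in SG1 and 22.9, 23.9 and 15.4 CPM in CTRL (log2 fold change -0.44 ± 0.20), and EFNB2 was at 77.6, 57.4 and 79.1 CPM in SG1 and 67.7, 50.6 and 47.1 CPM in CTRL (0.37 ± 0.17). In SG3, PLXNB1 averaged 9.09 ± 0.928 CPM, against 11.8 ± 3.29 in CTRL, NEO1 21.7 ± 5.17 against 26.3 ± 3.45, and SEMA6C 6.99 ± 1.47 against 5.72 ± 0.871 (SD, n = 3 each), with edgeR adjusted p of 1. In the mean contrast PLXNC1, the receptor of semaphorin 7A, had a log2 fold change of 0.41 ± 0.26 (edgeR adjusted p = 1).

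SG1 and SG3 were also set against each other. SEMA3E, with the smallest unadjusted p, had 4, 6 and 0 counts in SG1 and 28, 16 and 14 counts in SG3 (log2 fold change -2.47 ± 0.78, edgeR adjusted p = 0.861). EFNB2 was at 77.6, 57.4 and 79.1 CPM in SG1 and 51.6, 54 and 56.9 CPM in SG3, without overlap (0.40 ± 0.17, edgeR adjusted p = 0.861). ROBO1 was also higher in SG1 than in SG3 without overlap (1.03 ± 0.64, edgeR adjusted p = 0.861). KIF20A was lowered less in SG1 than in SG3, by -0.42 against -1.10. A link between ROBO1 and the level of KIF20A was not tested. Members without overlap between the libraries were 2 higher and 1 lower in SG1 against CTRL, where 4.96% and 7.21% of all genes were, 2 higher and 0 lower in SG3 against CTRL (2.28% and 2.38%), and 2 higher and 4 lower in SG1 against SG3 (6.26% and 4.55%). In the mean contrast 1 was higher, ROBO1, and 0 were lower (0.536% and 0.441%). The abundant members varied little with the group. EPHA2 averaged 468 ± 29.3 CPM in SG1, 550 ± 113 in SG3 and 489 ± 6.97 in CTRL, and NRP1 averaged 357 ± 22.8, 349 ± 49.5 and 326 ± 35.4 CPM in these groups (SD, n = 3 each). Without CTRL replicate 3 and SG3 replicate 1 together, PLXNA2 was called in SG1 against CTRL (-0.63, edgeR adjusted p = 0.0495), and EPHA2 (-0.42), SEMA4C (-0.39) and EPHB4 (-0.54) were called in SG1 against SG3 (edgeR adjusted p = 0.0274 to 0.0466), in fits that called 765 and 1528 genes in all. Mitochondrial genes took 1.7% to 3.82% of counts in SG1, 1.13% to 2.33% in SG3 and 1.13% to 2.84% in CTRL, and their part in these values was not tested.

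Genes that act downstream of the receptors were called in both directions. Of 72 signal transducers of guidance receptors, 71 were tested, with 25 higher and 30 lower and a median log2 fold change of 0.05, where 46.2% of all genes were higher and 23.4% lower in KIF20A_OE. DPYSL5, a collapsin response mediator protein, averaged 97.6 ± 7.03 FPM in KIF20A_OE and was at 0 in EV, and DPYSL4, its relative, averaged 48.4 ± 11.2 FPM in KIF20A_OE and 0.0803 ± 0.101 FPM in EV (SD, n = 3 each). MICAL2, an actin-oxidising enzyme of the family that acts with plexins, averaged 19.2 ± 8.22 FPM in KIF20A_OE and 552 ± 125 FPM in EV, and ABLIM3, an actin-binding LIM protein, averaged 4.76 ± 1.98 and 134 ± 3.85 FPM. ENAH and VASP, paralogs that lengthen actin filaments, moved apart, with log2 fold changes of 2.82 ± 0.15 and -2.20 ± 0.11 (limma adjusted p = 1.03e-06 and 7.75e-07). RASA1 and CAP1 were lower by -2.47 and -1.51, and VAV3 and PAK3 were higher by 3.11 and 3.49 on the log2 scale.

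Of 21 co-receptors and further ligands, 18 were tested, with 7 higher and 11 lower and a median of -1.72, beside the same shares of all genes. RGMA, a repulsive guidance molecule that binds neogenin, averaged 46.2 ± 11.2 FPM in KIF20A_OE and 0.135 ± 0.0514 FPM in EV, whereas RGMB averaged 14.7 ± 4.27 and 101 ± 22.1 FPM (SD, n = 3 each). ITGB1, the integrin beta chain through which semaphorin 7A signals, averaged 157 ± 31.6 FPM in KIF20A_OE and 1610 ± 131 FPM in EV. FLRT2, a ligand of UNC5 receptors, and L1CAM, an adhesion partner of neuropilin 1, were lower by -5.85 ± 0.31 and -5.25 ± 0.50 (limma adjusted p = 1.04e-06 and 6.37e-05). RGMA reached 1 FPM on average in KIF20A_OE only and FLRT2 in EV only, and the filter favours those directions. In the depletion dataset, 66 transducers and 13 of the co-receptors and ligands were tested, and 0 were called in any comparison (edgeR). At an unadjusted p under 0.05, there were 3 transducers and 1 co-receptor in SG1 against CTRL, where 4.59% of all genes had such a p, and 2 and 0 in SG3 against CTRL (1.19%).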

How the data were processed

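The depletion dataset was deposited as raw counts per gene, which were whole numbers with totals that differed between libraries. The values of the overexpression dataset carry the name FPKM in the labels. The columns that the authors deposited all had 1 common total, as CPM values do, and their low values rose in equal steps across genes, so they were read as FPM, fragments on a per-million scale without gene length. Every value (100%) came out whole within 0.001 fragments when divided by the worth of 1 fragment, and edgeR on those fragments, an alternative, called 10889 genes. The planned limma test had allowed for FPKM and suits FPM as well. Build hg38 and these tools are named in the submitters' processing notes: STAR 2.7.3a, Trim Galore 0.6.4, limma 3.50.3, Subread 1.6.3 and featureCounts. Their roles, the annotation release and the strand setting are not given in the sources. Exons of 21 members share bases with a gene on the opposite strand, so such reads cannot be told apart.

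Counts were tested with edgeR 4.0.16 in R 4.3.3 (quasi-likelihood test, TMM, default filter on low counts, 9 libraries in 1 fit, 16786 genes). FPM values were tested with limma 3.58.1 (trend and robust) on log2(FPM + 1), for the 15265 genes whose mean reached 1 FPM. A fold change on that scale understates the change of low genes. Adjusted p-values are Benjamini-Hochberg values over all genes tested, with a threshold of 0.05. Depletion levels are CPM over TMM-scaled library totals. Levels per kb use GENCODE 29 exon lengths, which all 70 members matched. RefSeq promoters matched 60 members by symbol. Named genes were drawn from KIF20A, ROBO1, called members and the 5 members with the smallest p in each comparison. For levels, the 3 highest of each family in CTRL and in EV were added. From the pathway lists, the rule took the called genes up to 10 and the 2 with the smallest p. Not every gene under this rule is given above, among them MET, ADAM10, FLT1, CD72 and DAG1. Members outside that rule were named after their values were seen. Alternatives were other scalings, DESeq2 1.42.0, filters, pseudocounts, a replicate block, halved counts and each library left out. Intervals and floors cover counting error only. The members and lists were chosen with earlier results of these data known.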

Additional observations from a re-analysis of the deposited data

Results flagged for a closer look

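For SEMA3E and NTN1, every SG1 library lay below the CTRL mean and every SG3 library lay above it. SEMA3E was at 0.0843, 0.123 and 0 CPM in SG1, 0.533, 0.341 and 0.337 CPM in SG3 and 0.221, 0.122 and 0.33 CPM in CTRL. The difference between the SG1 and SG3 effects, which is the contrast of SG1 against SG3, was -2.47 on the log2 scale and did not pass (edgeR adjusted p = 0.861). NTN1 was at 0.105, 0.082 and 0.0959 CPM in SG1, 0.229, 0.298 and 0.193 CPM in SG3 and 0.221, 0.243 and 0 CPM in CTRL. Its difference was -1.33 (edgeR adjusted p = 0.861). Neither gene exceeded 28 counts in a depletion library.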

How the results depend on the processing

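In KIF20A_OE against EV, 50 to 56 members were called over the 13 alternatives (50 to 53 with a library left out), and none of the 53 called members changed direction. EFNA1, EFNA3, EFNA5, EPHA4, EPHB1, PLXNB1 and ROBO1 lost the call in at least 1 of them, as given above. In the depletion dataset, where the edgeR fit called none, the counts moved with the tool, the filter and the libraries. DESeq2 called 1 member and 3 genes in SG1 against CTRL, 4 genes in SG3 against CTRL, 5 in SG1 against SG3 and 5 in the mean contrast. Without a filter on low counts these were 1 member and 91 genes, 8 genes, 77 genes, and 1 member and 20 genes. Without CTRL replicate 3 and SG3 replicate 1 together, 2 members and 765 genes were called in SG1 against CTRL, and 3 members and 1528 genes in SG1 against SG3. With 1 library left out, 0 to 1 genes were called in SG1 against CTRL (1 without SG1 replicate 2), 0 to 5 in SG1 against SG3 (5 without SG3 replicate 1) and 0 to 2 in the mean contrast (2 without SG1 replicate 2), and 0 members in each. The cause was not tested.

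Replicate numbers are shared between groups, but nothing says that they pair libraries. Same-numbered libraries correlated at -0.123 to 0.182 in the depletion dataset and at 0.0142 to 0.0577 between KIF20A_OE and EV, where each library correlated best with its own number. With the replicate block, 0 members were called in the depletion dataset, and 54 members and 10530 genes in KIF20A_OE against EV. Fitting only the libraries compared was not run for the mean contrast, which uses all 9. At these depths, members with few counts, such as ROBO1 in the depletion dataset, limit what can be seen.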
